A study of Homo sapiens with 6 samples.

Results

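The genes described are the platelet-derived growth factors (PDGF) and their receptors, in LX2 cells with reduced METTL3. The family was defined by name as 6 genes, PDGFRA, PDGFRB, PDGFA, PDGFB, PDGFC and PDGFD. A row was present for 4 of them among 12654 genes, namely the receptor PDGFRB and the ligands PDGFA, PDGFB and PDGFC. PDGFRA and PDGFD were not analysed here. LX2 is an established human cell line derived from hepatic stellate cells, which turn into matrix-producing myofibroblasts when the liver is injured, and METTL3 is the enzyme that places N6-methyladenosine on messenger RNA. RNA-seq was done on 6 libraries, 2 in each of 3 groups, and the series title asks whether METTL3 loss affects stellate cell activation. The shLuc group carried a control hairpin against firefly luciferase, and the shMETTL3-1 and shMETTL3-2 groups each carried a different hairpin against METTL3. Lentivirus for pLKO.1 hairpin constructs was packaged in HEK293T cells. In all groups LX2 met the virus over 10 h in the presence of polybrene at 1 µg/ml, was selected in puromycin at 1 µg/ml, and grew with 10% fetal bovine serum, itself a source of growth factors. Control cells thus went through infection and selection too. Whether the replicates of a group were separate cultures is not stated, so the p-values reflect only library-to-library spread, part or all of which could be technical.

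PDGF ligands are secreted dimers that bring together a pair of receptor tyrosine kinases, PDGFR-alpha and PDGFR-beta, on mesenchymal cells. The dimer of PDGF-B binds both receptors, whereas those of PDGF-A and PDGF-C act mainly through the alpha receptor, and PDGF-D acts mainly through the beta receptor. Bound receptors phosphorylate each other and recruit adaptors that start the RAS-MAP kinase, PI3K-AKT and phospholipase C pathways. In the liver, stellate cells gain PDGFR-beta as they activate, and PDGF-B is known as a strong mitogen for them.

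The values are whole-number scores that share nearly 1 distribution, the median being 552 and the maximum 72566 in each library, so depth per library is unknown and a score is close to a rank. Scores are not corrected for transcript length, and no level is compared between genes below. The sums over marker lists are the exception, and genes with high scores weigh most in them. Changes are given in log2(score + 1), and a gene was called changed at an adjusted p under 0.05 from limma with Benjamini-Hochberg adjustment over 12413 genes. METTL3, on the minus strand of chromosome 14 (21966277 to 21971972 of hg19; ENSG00000165819), scored 536 and 552 in shLuc cells, 274 and 256 under shMETTL3-1 and 148 and 132 under shMETTL3-2. It was lower with both hairpins, and lowest with shMETTL3-2. The position is that of its listed transcript, ENST00000539760, which is annotated as a target of nonsense-mediated decay. The protein-coding gene TOX4 overlaps it on the opposite strand. The strand setting of the counts is not given, so reads from the stretch that METTL3 and TOX4 share cannot be told apart. Of 22 stellate cell and myofibroblast markers 16 had a row, among them ACTA2, COL1A1, VIM and THY1, while DES, LRAT, HAND2, CYGB and PDGFRA, among others, were not analysed here. Only 2 of 16 hepatocyte markers had a row, with a summed score of 218 to 342 in every library.

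PDGFRB was lower and PDGFB higher with each hairpin, and both genes moved further with shMETTL3-1, the hairpin with the higher METTL3 score. PDGFA was slightly higher with each hairpin. PDGFC was higher with shMETTL3-2 and stood at the control score with shMETTL3-1. With shMETTL3-1 3 of the 4 genes were called, 2 of them higher and 1 lower, beside 58.7% of all genes tested, 30.3% higher and 28.4% lower. With shMETTL3-2 4 of 4 were called, 3 higher and 1 lower, beside 59.6% of all genes, 30.8% higher and 28.8% lower. A call alone therefore does not set these genes apart, and the size and direction of each change are given below. The comparisons with the 2 hairpins share the shLuc libraries.

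**Figure D1:**
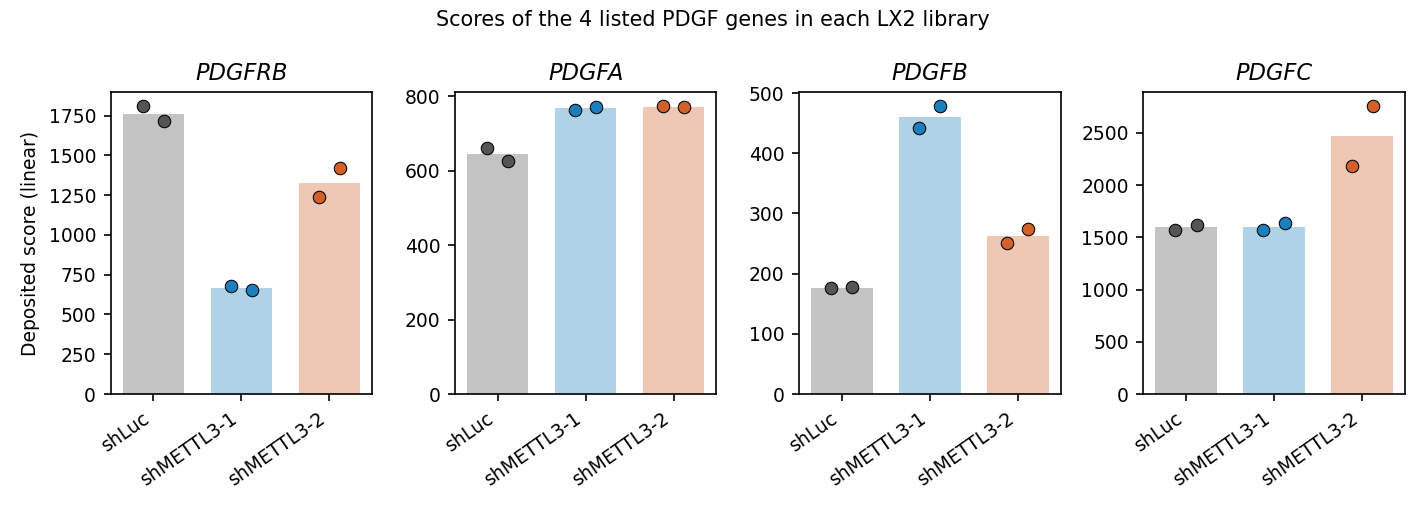
Deposited score (vertical axis, linear, from 0, with its own range for each gene) of PDGFRB, PDGFA, PDGFB and PDGFC in the 6 LX2 libraries, where each point is 1 library and each bar the mean of 2. PDGFRB fell from 1808 and 1718 with shLuc to 680 and 656 with shMETTL3-1, while PDGFB rose from 176 and 178 to 442 and 478.

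PDGFRB, the beta receptor (ENSG00000113721), lies on chromosome 5 at 149493400 to 149535423 of hg19, on the minus strand. Its listed transcript ENST00000261799 has 23 exons in the GENCODE annotation of GRCh37. Its score was 1808 and 1718 in shLuc cells, 680 and 656 under shMETTL3-1 and 1236 and 1419 under shMETTL3-2. No library of 1 group overlapped those of another, and the order from high to low was shLuc, shMETTL3-2, shMETTL3-1. The group means were 1763 ± 63.6, 668 ± 17.0 and 1327.5 ± 129 (SD, n = 2). The receptor was 2.64-fold lower with shMETTL3-1 (log2 -1.40, SE 0.08, limma adjusted p = 9.7e-06). It was 1.33-fold lower with shMETTL3-2 (log2 -0.41, SE 0.08, limma adjusted p = 0.00292). In absolute size the first change exceeded that of 93.8% of all genes tested and the second that of 55.0%. The median absolute change was 0.35 and 0.36 on the log2 scale in these comparisons. The hairpins themselves differed, shMETTL3-2 standing 1.98-fold above shMETTL3-1 (log2 0.99, SE 0.08, limma adjusted p = 3.66e-05). In bulk RNA, fewer cells that express the receptor and less receptor RNA per cell cannot be told apart.

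The RefSeq table of promoters holds 1 window for PDGFRB and 4 for PDGFA. The 250 bases before the start are shown for both, since they hold the boxes through which factors measured in these libraries are described to act. For PDGFA the window shown is the one nearest to the start listed in the deposited table. Its start is at 559483 of GRCh37 by sequence match, which is the GENCODE start of the listed transcript and lies 437 bases from the listed start. The start of the PDGFRB window is likewise at 149535408, 15 bases from the listed one. Coordinates of the sequences are in GRCh38.p14, at chr5:150155846-150156095 and chr7:519847-520096, both minus strand and written 5′ to 3′ on the gene's strand. Capitals mark CCAAT, the letters bound by NF-Y, the GC box GGGCGG bound by SP1 and, where they overlap it, the EGR1 letters GCGGGGGCG.
PDGFRB: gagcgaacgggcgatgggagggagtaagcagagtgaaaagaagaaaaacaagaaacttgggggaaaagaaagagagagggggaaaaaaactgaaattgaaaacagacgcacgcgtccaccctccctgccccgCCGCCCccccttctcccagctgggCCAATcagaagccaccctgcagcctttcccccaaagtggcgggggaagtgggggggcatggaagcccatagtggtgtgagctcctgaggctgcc
PDGFA: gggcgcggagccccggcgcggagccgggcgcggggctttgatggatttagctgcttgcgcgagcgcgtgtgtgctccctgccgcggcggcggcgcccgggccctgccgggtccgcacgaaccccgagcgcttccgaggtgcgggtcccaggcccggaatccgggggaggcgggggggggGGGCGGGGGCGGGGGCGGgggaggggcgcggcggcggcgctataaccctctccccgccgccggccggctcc

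The PDGFRB window held 1 CCAAT beginning 94 bases before the start and 1 GC box, on the opposite strand, beginning 118 bases before it. The PDGFA window held 3 GC boxes within a G-rich run, beginning 71, 65 and 59 bases before the start, and the EGR1 letters overlapped them at 69 and 63 bases. The windows differed in base composition, with 58.4% G or C for PDGFRB and 81.6% for PDGFA. Searched on both strands with overlaps kept, CCAAT was found in 32.0% of 35116 RefSeq windows of the same length, the GC box in 42.6% and the EGR1 motif (GCGGGGGCG or GCGTGGGCG) in 5.37%. The letters TATAAA (in 10.7% of windows), the AP-1 motif TGACTCA or TGAGTCA (4.20%), the TEAD motif GGAATG (11.9%) and the CArG box bound by SRF (1.16%) were not among the letters of either window shown. The other 3 PDGFA windows start 817, 1291 and 1080 bases from the listed start. The first of them held a CArG box beginning 120 bases before its own start, as well as GC boxes and the EGR1 letters, and the second held a CCAAT beginning 137 bases before its start.

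PDGFB, whose homodimer binds the beta receptor (ENSG00000100311), lies on chromosome 22 at 39619364 to 39640756 of hg19, minus strand, with 7 exons in its listed transcript. It scored 176 and 178 in shLuc cells, 442 and 478 under shMETTL3-1 and 251 and 274 under shMETTL3-2. The groups did not overlap, and their order was the reverse of that of the receptor. The means were 177 ± 1.41, 460 ± 25.5 and 262.5 ± 16.3 (SD, n = 2). PDGFB was 2.59-fold higher with shMETTL3-1 (log2 1.37, SE 0.09, limma adjusted p = 2.35e-05), a change larger in absolute size than that of 93.5% of genes tested. With shMETTL3-2 it was 1.48-fold higher (log2 0.56, SE 0.09, limma adjusted p = 0.00163), above 67.4% of genes. Between the hairpins it was lower with shMETTL3-2 by a log2 change of -0.81 (SE 0.09, limma adjusted p = 0.000249). A long noncoding RNA gene overlaps PDGFB on the opposite strand. PDGFC is overlapped in the same way by 3 genes, a long noncoding RNA gene among them. The strand setting of the counts is not given in the sources used here, so reads from the shared stretches cannot be told apart.

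PDGFA, a ligand of the alpha receptor (ENSG00000197461), lies on chromosome 7 at 536895 to 559046 of hg19, minus strand, with 6 exons in its listed transcript. It scored 662 and 626 in shLuc cells, 764 and 772 under shMETTL3-1 and 773 and 772 under shMETTL3-2. Both hairpin groups lay above the control and overlapped each other. The change was a log2 of 0.25 with shMETTL3-1 (SE 0.06, limma adjusted p = 0.010) and of 0.26 with shMETTL3-2 (SE 0.06, limma adjusted p = 0.0085), each larger than that of 38.8% of genes tested. The first call was lost without shLuc replicate 2 (log2 0.21, limma adjusted p = 0.0523) or without shMETTL3-1 replicate 2 (log2 0.25, limma adjusted p = 0.0534), in a range over the 6 libraries left out of 0.0153 to 0.0534. No difference between the hairpins passed the threshold (log2 0.01, 95% interval -0.14 to 0.15, limma adjusted p = 0.918).

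PDGFC, a ligand that is secreted with a CUB domain and must be cleaved to bind the alpha receptor (ENSG00000145431), lies on chromosome 4 at 157681606 to 157892546 of hg19, minus strand, with 6 exons in its listed transcript. It scored 1572 and 1619 in shLuc cells, 1569 and 1635 under shMETTL3-1 and 2186 and 2754 under shMETTL3-2. The control and shMETTL3-1 groups overlapped, and both shMETTL3-2 libraries lay above them. With shMETTL3-1 the log2 change was 0.01 (95% interval -0.24 to 0.25, limma adjusted p = 0.976). With shMETTL3-2 it was 0.62 (SE 0.10, limma adjusted p = 0.0019), or 1.54-fold higher, above 71.2% of genes in absolute size. The difference between the hairpins was 0.62 as well (SE 0.10, limma adjusted p = 0.00183). The shMETTL3-2 replicates lay further apart than those of the other groups (SD 402, against 33.2 and 46.7), and without replicate 2 of that group the change with shMETTL3-2 was 0.45.

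Between the hairpins 3 of 4 passed the test, with shMETTL3-2 the higher for 2 and the lower for 1, beside 63.0% of all genes, 31.9% higher and 31.1% lower. PDGFRB and PDGFC were higher and PDGFB lower with shMETTL3-2 than with shMETTL3-1. METTL3 itself was lower with shMETTL3-2 (log2 -0.92, limma adjusted p = 0.00016).

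**Figure D2:**
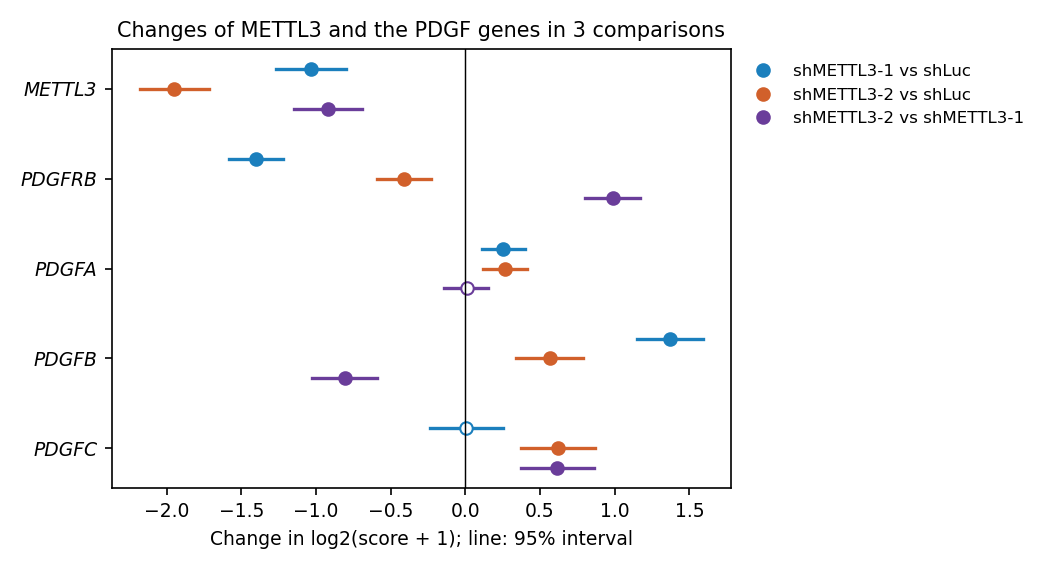
Change in log2(score + 1) on the horizontal axis of METTL3 and the 4 PDGF genes in 3 comparisons, with lines for the 95% interval of the limma fit, filled points for an adjusted p under 0.05 and open points otherwise. METTL3 changed by -1.04 with shMETTL3-1 and -1.95 with shMETTL3-2, whereas PDGFRB changed by -1.40 and -0.41.

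The genes whose profile over the 6 libraries lay nearest to each PDGF gene were found by Euclidean distance between centred log2 scores, among 12187 others. For PDGFRB they were C9orf3 (distance 0.162), MYADM (0.168) and ENTPD7 (0.169). MYADM, for example, scored 4340 and 4180 in shLuc cells, 1638 and 1586 under shMETTL3-1 and 3000 and 3020 under shMETTL3-2. For PDGFB they were FCGRT, the neonatal Fc receptor (0.118), ITGB5, an integrin subunit (0.134), and TMEM189 (0.135). ITGB5 scored 566 and 548, 1500 and 1500, and 806 and 934 in the same order of groups. For PDGFA they were MAPK11, a p38 kinase (0.042), EXOC1, an exocyst subunit (0.0509), and CLPTM1 (0.053). For PDGFC they included CKS2, a partner of cyclin-dependent kinases (0.133), and PLA2G12A, a phospholipase (0.134).

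Proteins that activate or bind PDGF ligands outside the cell went in both directions. Of 8 tested, 5 rose and 3 fell with shMETTL3-1, and with shMETTL3-2 3 rose, 3 fell and 2 did not pass. Among all genes tested, 30.3% were higher and 28.4% lower with shMETTL3-1, and 30.8% were higher and 28.8% lower with shMETTL3-2, and the counts of the lists that follow are set against the same shares. The median log2 change of the list was 0.67 and 0.22, beside 0.01 for all genes in each comparison. NRP1, a co-receptor for several growth factors, rose by 1.83 and 1.57, scoring 390 and 406 in shLuc cells, 1378 and 1450 under shMETTL3-1 and 1178 and 1195 under shMETTL3-2. SPARC, a matrix protein that binds PDGF-B, rose by 1.17 and 1.87. PCSK7, a proprotein convertase, fell by log2 -1.85 and -1.39. PLAU, the urokinase that can cleave PDGF-D to its active form, scored 2492 and 2360 in shLuc cells, 7689 and 8080 under shMETTL3-1 and 405 and 366 under shMETTL3-2. Its log2 change was 1.70 with shMETTL3-1 and -2.65 with shMETTL3-2, and the hairpins differed by -4.35 (SE 0.07, limma adjusted p = 2.39e-07). A further 3 genes were chosen for their role after their values were seen. FURIN, the convertase that trims PDGF-A and PDGF-B precursors, scored 2609 and 2512, 1186 and 1195, and 3088 and 3088 in the order shLuc, shMETTL3-1, shMETTL3-2 (log2 -1.10 and 0.27, limma adjusted p = 3.63e-06 and 0.00218). PLAT, which cleaves PDGF-C, changed by 0.33 and -0.14 (limma adjusted p = 0.000598 and 0.0284). The second call was lost without any 1 of the shLuc or shMETTL3-2 libraries, and under plain moderation, with no trend and not robust (limma adjusted p = 0.0513). LRP1, an endocytic receptor that associates with PDGFR-beta, rose under shMETTL3-1 (1.00). Its change under shMETTL3-2 was 0.17 and not called (limma adjusted p = 0.0745). That change was called in the fit of only the 2 groups compared (limma adjusted p = 0.0377) and with a replicate block (limma adjusted p = 0.0406). It was also called on rank scores (limma adjusted p = 0.0391) and without either shMETTL3-1 library, and stayed uncalled under the other settings.

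Adaptors and enzymes recruited to the phosphorylated receptor did not move one way. Of 24 tested, 6 rose, 8 fell and 10 did not pass with shMETTL3-1, and 8 rose, 10 fell and 6 did not pass with shMETTL3-2, with medians of -0.03 and 0.04. Catalytic subunits of PI3-kinase moved apart, with PIK3CD higher by 1.74 and 1.25 and PIK3CB lower by log2 -0.92 and -1.14. STAT5A, a transcription factor that growth factor receptors activate, rose by 0.96 and 0.84, whereas its paralog STAT5B fell by log2 -2.20 and -1.06. STAT5B scored 3248 and 3526 in shLuc cells, 737 and 739 under shMETTL3-1 and 1504 and 1760 under shMETTL3-2. These paralogs are near-identical in parts, so reads may be split between them. GRB2, the adaptor that links receptors to RAS activation and was chosen after its values were seen, scored 2774 and 3101, 1197 and 1114, and 3188 and 3367 in the order shLuc, shMETTL3-1, shMETTL3-2. Its change was -1.34 with shMETTL3-1 (limma adjusted p = 8.01e-06) and 0.16 with shMETTL3-2 (limma adjusted p = 0.0902), the latter reaching 0.24 without shLuc replicate 2 (limma adjusted p = 0.0409).

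Proteins that dephosphorylate, ubiquitylate or sort the receptor had 8 of 17 higher and 5 lower with shMETTL3-1, and 8 higher and 4 lower with shMETTL3-2, with medians of 0.20 and 0.30. Without shMETTL3-1 replicate 1 or replicate 2 the number higher with shMETTL3-1 was 5 or 4. Without shLuc replicate 1 or shMETTL3-2 replicate 2 the number lower with shMETTL3-2 was 2. PTPN12, a tyrosine phosphatase of PDGFR-beta, rose by 0.70 and 0.96. CBL, a ubiquitin ligase that directs receptors to degradation, fell by log2 -0.44 and -0.98. PTPRJ, a receptor-type phosphatase of PDGFR-beta, fell by log2 -0.69 under shMETTL3-1 and by -0.20 under shMETTL3-2. The latter call was lost without any 1 of the shLuc or shMETTL3-2 libraries, and under plain moderation, with no trend and not robust (limma adjusted p = 0.0511). STAM, an endosomal sorting protein, rose by 0.51 and 0.45, the latter not passing without shLuc replicate 1 (limma adjusted p = 0.0631). PTPN1, the phosphatase PTP1B, scored 2866 and 2974 in shLuc cells, 4152 and 4152 under shMETTL3-1 and 950 and 1018 under shMETTL3-2. It rose by 0.51 and fell by 1.57 on the log2 scale, and the hairpins differed by -2.08 (limma adjusted p = 5.96e-07).

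In the RAS-MAP kinase and PI3K-AKT cascades 9 of 24 genes rose and 7 fell with shMETTL3-1, and 11 rose and 7 fell with shMETTL3-2, with medians of 0.01 and 0.06. RPTOR, a subunit of the mTOR complex, rose by 0.75 and 0.62. NRAS, a small GTPase downstream of the receptor, rose with shMETTL3-1 (0.90) and fell with shMETTL3-2 (-1.18), and the hairpins differed by -2.08 (limma adjusted p = 8.93e-06).

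**Figure D3:**
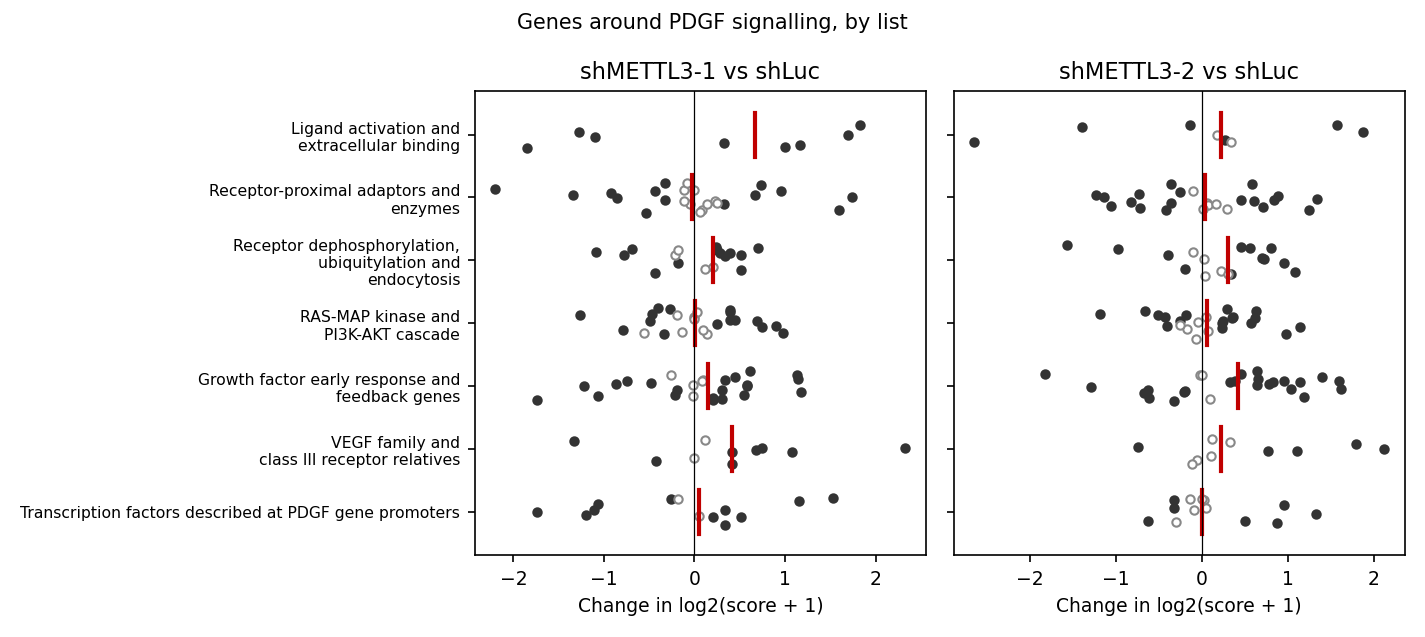
Change in log2(score + 1) of the tested genes of 7 lists around PDGF signalling, with shMETTL3-1 (left) and shMETTL3-2 (right) against shLuc. Each point is 1 gene, filled where the adjusted p was under 0.05 and open otherwise, the vertical spread within a list is for legibility, and red bars are list medians, which run from -0.03 to 0.67 on the left and from 0.00 to 0.42 on the right.

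Early response genes and feedback inhibitors that growth factors induce were more often higher than lower. Of 26 tested, 13 rose, 8 fell and 5 did not pass with shMETTL3-1, and 15 rose, 8 fell and 3 did not pass with shMETTL3-2. All genes tested were higher in 30.3% and 30.8% of cases and lower in 28.4% and 28.8%. The medians were 0.15 and 0.42. DUSP6, a phosphatase of ERK that ERK signalling induces, scored 258 and 251 in shLuc cells, 558 and 570 under shMETTL3-1 and 798 and 771 under shMETTL3-2. It rose by 1.14 (limma adjusted p = 1.36e-05) and 1.62 (limma adjusted p = 3.37e-06), and its groups did not overlap. ETV5, a transcription factor downstream of ERK, rose by 1.13 and 1.14. The list holds 3 Sprouty inhibitors of receptor signalling, which were chosen after their values were seen and did not move one way. SPRY2 rose by 0.55 and 1.40, and SPRY4 by 0.58 and 1.59. SPRY1, at scores of 63 and 72, 40 and 78, and 28 and 26, changed by -0.26 with shMETTL3-1 (limma adjusted p = 0.519) and fell by log2 -1.29 with shMETTL3-2 (limma adjusted p = 0.0115), a call lost without shLuc replicate 2 (limma adjusted p = 0.0638). In the other direction, HBEGF, an EGF receptor ligand, fell by log2 -0.75 and -1.83, and DUSP1, a stress-inducible MAP kinase phosphatase, by -0.87 and -0.67. SRF, the factor of the CArG box, scored 2796 and 2858 in shLuc cells, 844 and 846 under shMETTL3-1 and 2870 and 2796 under shMETTL3-2. It fell with shMETTL3-1 (-1.74, limma adjusted p = 9.59e-07), lay at 0.00 with shMETTL3-2 (limma adjusted p = 0.964), and differed between the hairpins (1.74, limma adjusted p = 7.39e-07).

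**Figure D4:**
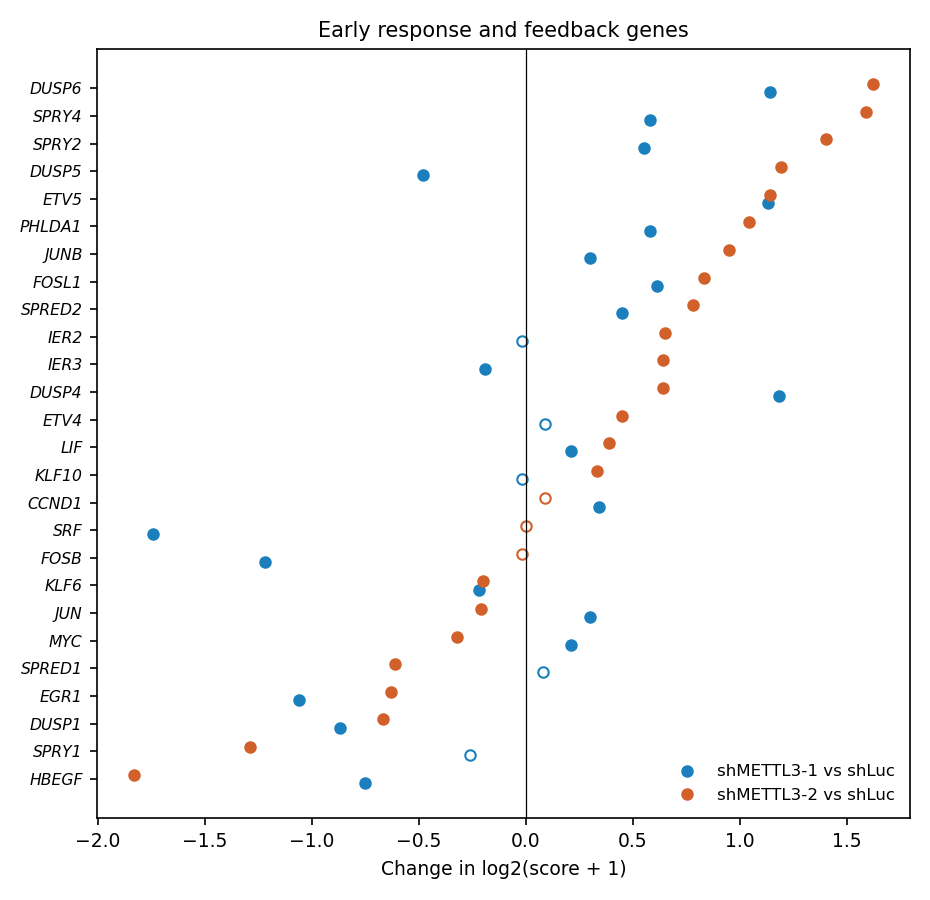
Change in log2(score + 1) (horizontal axis) of 26 early response and feedback genes with shMETTL3-1 (blue) and shMETTL3-2 (orange) against shLuc, ordered by the latter, with filled points for an adjusted p under 0.05. DUSP6 stands at the top with 1.14 and 1.62, and HBEGF at the bottom with -0.75 and -1.83.

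Relatives of the family were the VEGF ligands, FLT1 and NRP2, and the class III receptors with their ligands. Of 10 tested, 6 were higher and 2 lower with shMETTL3-1, and 4 higher and 1 lower with shMETTL3-2. Among all genes the shares were 30.3% and 28.4%, and 30.8% and 28.8%. The medians of the list were 0.42 and 0.23. KIT, a receptor of the same class as PDGFR-beta, scored 1626 and 1562 in shLuc cells, 622 and 648 under shMETTL3-1 and 920 and 992 under shMETTL3-2. Its group order was that of PDGFRB, with log2 changes of -1.33 and -0.74 (limma adjusted p = 5.56e-06 and 7.21e-05). KITLG, the ligand of KIT, rose by 2.33 and 1.79. FLT1, a VEGF receptor, rose by 0.68 and 2.12, from 150 and 120 with shLuc to 207 and 226 and to 592 and 582. PGF, placental growth factor, was called higher by 0.75 and 0.77 at scores between 47 and 102, and each call was lost without shLuc replicate 1 (limma adjusted p = 0.0699 and 0.0636) as well as without 1 library of the hairpin concerned, replicate 2 of shMETTL3-1 (0.0989) or replicate 1 of shMETTL3-2 (0.0661).

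Transcription factors described at PDGF gene promoters had 6 of 13 higher and 5 lower with shMETTL3-1, and 4 higher and 3 lower with shMETTL3-2, with medians of 0.05 and 0.00. Without shLuc replicate 1, shLuc replicate 2 or shMETTL3-1 replicate 2 the number higher with shMETTL3-1 was 3, 3 or 2. ETS1 rose by 1.53 and 1.33, and HIF1A, the hypoxia factor that induces PDGFB, by 1.16 and 0.96. EGR1, whose letters overlap the GC boxes of the PDGFA window above, fell by log2 -1.06 and -0.63, scoring 424 and 363, 186 and 190, and 240 and 268. For the CCAAT and GC boxes, the values of the NF-Y subunits, SP1 and SP3 were chosen after they were seen. The NF-Y subunit NFYB scored 362 and 346, 178 and 150, and 320 and 320, with changes of -1.11 (limma adjusted p = 0.000122) and -0.14 (limma adjusted p = 0.283). Its partner NFYA changed by -0.18 and 0.05 (limma adjusted p = 0.185 and 0.678), and the first reached -0.32 without shMETTL3-1 replicate 1 (limma adjusted p = 0.0441). The third subunit, NFYC, was called in opposite directions with the hairpins, at 0.34 and -0.33 (limma adjusted p = 0.0342 and 0.0368). The first of these calls was lost without any 1 of the shLuc or shMETTL3-1 libraries, and the second without any 1 library other than shMETTL3-2 replicate 1. The second was also lost in the fit of only the 2 groups compared (limma adjusted p = 0.0739). It was lost too under plain moderation, with no trend and not robust (limma adjusted p = 0.0508). SP1 changed by 0.05 and 0.03 (limma adjusted p = 0.426 and 0.661). SP3, which binds the same GC box, changed by -0.26 and 0.50 (limma adjusted p = 0.0258 and 0.00134), the first call being lost without shLuc replicate 1 or shMETTL3-1 replicate 2 (limma adjusted p = 0.138 and 0.152).

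Scores of markers of other cell types differed between the groups, in both directions within a list. Sums were not tested. The 5 endothelial markers of 12 that had a row summed to 1308 to 1388 with shLuc, 2145 to 2195 with shMETTL3-1 and 1934 to 1935 with shMETTL3-2. CDH5, the endothelial cadherin, scored 180 and 164, 26 and 49, and 4 and 10, and VWF was lower in both hairpin groups as well. TIE1 scored 790 and 922, 1722 and 1758, and 602 and 613, whereas TEK scored 100 and 110, 159 and 122, and 688 and 684, and FLT1 is given above. The 5 epithelial markers of 10 summed to 9980 to 10056, 15889 to 16464 and 9542 to 9833. The shMETTL3-2 sums lay near the control, but single markers in them did not all do so. KRT8 scored 4594 and 4680, 7251 and 6508, and 3444 and 3444, and KRT18 4776 and 4776, 8259 and 8259, and 5757 and 5564. The 5 macrophage and leukocyte markers of 12 summed to 1094 to 1157, 1597 to 1902 and 1704 to 1740. Of these CD68 scored 392 and 360, 1150 and 1005, and 1053 and 1083, and LYZ stayed between 224 and 279 in every library. PTPRC, the pan-leukocyte marker, scored 317 and 298, 259 and 0, and 255 and 214, the 0 being shMETTL3-1 replicate 2. The 16 stellate and myofibroblast markers, PDGFRB included, summed to 181278 to 188210, 166057 to 166560 and 146396 to 151389. Few genes make up most of that sum, among them COL1A1, which stood at the maximum of 72566 in each shLuc and shMETTL3-1 library and at 44454 with shMETTL3-2. Single markers went both ways, ACTA2, the smooth muscle actin of myofibroblasts, scoring 8266 and 9713, 917 and 1040, and 1394 and 1694, and SPARC 11798 and 12564, 27406 and 27406, and 44404 and 44404. The part of these markers in the PDGFRB and PDGFB results was not tested.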

How the data were processed

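RNA-seq of 6 LX2 libraries was analysed from 1 deposited table of 12654 genes. The genome build was hg19, per the labels' protocols, and the submitters' processing notes list DESeq2 with neither a role nor a version. What aligner, counter and strand setting were used is not given in the sources used here. Each value in the deposited table is treated as a score, since sorted columns agree at 87.3% of ranks in all 6 libraries and totals run from 16535130 to 16536605. Depth and counting error are therefore unknown, a common shift of every gene cannot show, and no count model or further scaling was used.

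The genes tested had to reach a mean score of 50. They were fitted with limma 3.58.1 in R 4.3.3 on log2(score + 1), with 1 mean per group over all 6 libraries, a mean-variance trend, robust moderation and 3 residual degrees of freedom, and the procedure was tested on simulated data. P-values are two-sided. The alternatives were other filters, pseudocounts of 0.5, 10 and 50, rank scores, plain moderation, fits of 2 groups, a replicate block and each library left out.

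The members and lists were chosen with earlier results of these data known. In each of 7 lists the genes named are up to 2 rises and 2 falls called with each hairpin, ranked by the smaller change, and the largest called difference between hairpins, without scores under 10 or at the maximum; the 3 genes nearest to each member are named too. Promoter sequences are from RefSeq (GRCh38.p14), and exons and starts from GENCODE on GRCh37. A few genes that these rules would name are not reported here.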

Additional observations from a re-analysis of the deposited data

Results flagged for a closer look

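The effects of the hairpins against the same control differed for 3 of the 4 PDGF genes by the limma test of the difference itself, each with 2 libraries per group. PDGFRB was higher with shMETTL3-2 than with shMETTL3-1 by a log2 change of 0.99 (limma adjusted p = 3.66e-05). PDGFB was lower with shMETTL3-2 by a log2 change of -0.81 (limma adjusted p = 0.000249). PDGFC was higher with shMETTL3-2 by 0.62 (limma adjusted p = 0.00183). Of all genes tested, 63.0% differed between the hairpins by the same rule.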

How the results depend on the processing

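Of 180 values of the 4 PDGF genes recomputed under 15 settings, 178 kept their direction and side of the threshold, or stayed uncalled. The exceptions were PDGFA with shMETTL3-1, whose log2 change was 0.21 without shLuc replicate 2 and 0.25 without shMETTL3-1 replicate 2, neither called, in a range of 0.21 to 0.29 over the libraries left out. With 1 library left out, a lone library is assumed to vary like the other groups. The number of genes called stayed between 5746 and 7436, 6364 and 6965, and 6377 and 7763 in the 3 comparisons. With a replicate block 7698, 7769 and 8196 genes were called, against 7281, 7400 and 7824, and the block changed no call of the PDGF genes. In each group the difference between replicates 1 and 2 was taken for 12188 genes. These differences correlated at 0.0589 between shLuc and shMETTL3-1, 0.182 between shLuc and shMETTL3-2 and 0.00445 between the hairpin groups. The replicate numbers were not taken to pair the libraries. For 43 other genes, METTL3 and list genes chosen after their values were seen among them, 47 of 1926 recomputed values lost a call, 13 gained one and 0 called values reversed. Of 630 recomputed list counts 8 moved by over 1.5 times, in 3 of 42 counts; beside those given with the lists, 2 members of the dephosphorylation and sorting list were lower with shMETTL3-2 under plain moderation. Results for PDGFRA and PDGFD were planned and are not analysed here.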

Other observations

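Of 8 tested genes that start within 500 kb of PDGFRB, 5 were called higher with shMETTL3-1 and the other 3 did not pass, beside 30.3% of all genes higher in that comparison. With shMETTL3-2, 3 were higher and 2 lower, beside 30.8% and 28.8% of all genes. CD74, the invariant chain of MHC class II, is among them and reached the mean score of 50 only through shMETTL3-1, scoring 24 and 24, 164 and 158, and 8 and 10. Without it 4 of 7 were higher with shMETTL3-1, and 3 were higher and 1 lower with shMETTL3-2. SLC26A2, a sulfate transporter that starts 195123 bases away, scored 153 and 184 in shLuc cells, 382 and 381 under shMETTL3-1 and 320 and 324 under shMETTL3-2. Around PDGFB 13 genes were tested, with 4 higher and 3 lower with shMETTL3-1 and 4 higher and 4 lower with shMETTL3-2. Around PDGFA 7 were tested, with 4 higher and 2 lower with shMETTL3-1 and 4 higher and 1 lower with shMETTL3-2. Of 2 tested around PDGFC, 1 was higher with shMETTL3-1 and 1 lower with shMETTL3-2. The window and these genes were chosen after the data were seen, and the difference from the rest of the genome was not tested.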
